A study of Rattus norvegicus with 16 samples.

Results

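The genes of the endogenous opioid system were followed in RNA-seq libraries of rat brain tissue that the labels give as central amygdala. They are 8 genes chosen by name: the peptide precursors Penk, Pdyn, Pnoc and Pomc and the receptors Oprm1, Oprd1, Oprk1 and Oprl1, out of 33294 genes in the table. All 8 were counted in every library and passed the filter on low counts, which left 17856 genes. The animals were adult offspring exposed around birth to fentanyl, a synthetic agonist of the mu opioid receptor, or to saline. There were 16 libraries in 4 groups: 6 fentanyl males, 2 fentanyl females, 6 saline males and 2 saline females. Tissue of both exposures was collected 1 day after the final session of a kind that the labels abbreviate as IVSA. The sources used here do not give strain, age in days, dose or litter, and the p-values cover only the spread between these animals, with no allowance for littermates.

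Opioid peptides are cut from larger precursor proteins in dense-core vesicles. Penk encodes the precursor of the enkephalins, which act mainly on the delta and mu receptors, and Pdyn that of the dynorphins, the main ligands of the kappa receptor. Pnoc encodes the precursor of nociceptin, which acts on its own receptor, the product of Oprl1, and Pomc that of beta-endorphin, made mainly by hypothalamic and pituitary cells. The receptor genes Oprm1 (mu), Oprd1 (delta), Oprk1 (kappa) and Oprl1 (nociceptin) all encode receptors coupled to inhibitory G proteins, which lower cyclic AMP, open inwardly rectifying potassium channels and close calcium channels. In the striatum, Penk marks the spiny neurons of the indirect pathway, which carry the dopamine receptor Drd2, and Pdyn those of the direct pathway, which carry Drd1. Both precursors are also made by GABAergic neurons of the central amygdala.

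Promoter sequence from RefSeq (build GRCr8) was at hand for 4 of the 8 genes, in 5 windows of 250 bases ending just before the annotated start. Windows of 3 genes are shown, those of Pdyn, which passed with striatal markers in the model fit below, of Oprd1, which passed in the plain correlation alone, and of Oprm1, which passed in neither. Each is written 5′ to 3′ on the strand of the gene, with matches to a core promoter motif, TATAAA, and to the E-box, CACGTG, in capitals. The Pdyn window is chr3:137366504-137366753 on the minus strand, the Oprd1 window chr5:149625000-149625249 on the minus strand, and the Oprm1 window chr1:45585733-45585982 on the plus strand, the one of 2 annotated Oprm1 windows with the higher start coordinate.
Pdyn: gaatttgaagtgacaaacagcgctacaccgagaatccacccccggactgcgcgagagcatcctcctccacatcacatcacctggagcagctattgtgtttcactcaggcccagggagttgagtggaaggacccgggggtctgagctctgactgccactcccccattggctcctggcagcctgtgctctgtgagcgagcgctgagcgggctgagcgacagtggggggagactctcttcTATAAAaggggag
Oprd1: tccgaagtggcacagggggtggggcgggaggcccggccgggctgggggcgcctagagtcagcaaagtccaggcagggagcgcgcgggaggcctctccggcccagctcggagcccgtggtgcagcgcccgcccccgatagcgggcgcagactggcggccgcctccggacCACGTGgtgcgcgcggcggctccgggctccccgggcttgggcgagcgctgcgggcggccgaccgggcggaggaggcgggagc
Oprm1: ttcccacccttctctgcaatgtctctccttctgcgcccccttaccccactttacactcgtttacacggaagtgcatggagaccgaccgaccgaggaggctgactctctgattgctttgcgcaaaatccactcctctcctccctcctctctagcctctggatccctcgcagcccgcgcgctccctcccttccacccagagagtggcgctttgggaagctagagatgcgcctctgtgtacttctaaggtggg
In the Pdyn window TATAAA began 13 bases before the start, and in the Oprd1 window CACGTG began 82 bases before it. TATAAA also lay 32 bases before the start of Pomc, and neither Oprm1 window held either motif. Both strands were searched, and these 3 matches did not overlap one another. Over all 33469 RefSeq promoter windows of the same length, 12.9% held TATAAA and 5.59% held CACGTG. The cyclic AMP response element TGACGTCA, in 1.59% of all windows, and the AP-1 motif TGACTCA, in 4.05%, had no match in the 5 windows. G and C made up 79.6% of the Oprd1 window, 59.2% of the Pdyn window and 58.4% of the Oprm1 window shown. A match is a run of letters and not a measured binding site.

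Total counts ranged from 12879701 to 22426428 per library, and 8.44% to 17.7% of them came from mitochondrially encoded genes, with the highest share in fentanyl male replicate 2 and at most 12.8% in the others. Markers of the central amygdala were counted in every library: Prkcd, protein kinase C delta, ran from 11.2 to 33.3 CPM (reads of a gene relative to the TMM-adjusted total of the library) and Crh, corticotropin-releasing hormone, from 0.521 to 17.2 CPM. Prkcd was highest in saline male replicate 3, which also had 68.1 CPM of the glutamate transporter gene Slc17a7, against a median of 1.16 CPM over all libraries. Slc17a7 is from a list of cortical and basolateral amygdala markers. Striatal markers were counted in every library as well: Drd2 ran from 53.7 to 406 CPM and Drd1 from 92.7 to 344 CPM. By median CPM, the 28 striatal markers reached from Ptpn7 (2.39 to 16.5 CPM) to Ppp1r1b (592 to 2849 CPM). Those of the central amygdala reached from Crh to Sst (41.4 to 206 CPM), so the levels of the 2 lists overlapped. Libraries fell into sets by a number that the labels do not explain. All fentanyl libraries have numbers from 1 to 6, saline males have 1 and 2 (replicates 1 and 2) or 9 to 12 (replicates 3 to 6), and saline females have 10 and 11. The mean log2 CPM of 28 striatal markers was 7.36 and 7.72 in saline males 1 and 2 and 5.94 to 6.63 in saline males 9 to 12. Myelin markers had means of 7.73 and 8.08 in the first of these sets and 8.35 to 9.72 in the second, and microglial markers 4.27 in both libraries of the first and 4.60 to 5.01 in the second. The exposure results, the relations to striatal markers and the pairs of members are given with and without these sets.

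Penk, the enkephalin precursor, ran from 911 CPM over a median of 1287 CPM to 2956 CPM in the 8 fentanyl libraries, against 423, 836 and 2512 CPM in the 8 saline libraries. The highest fentanyl library was a female, the highest saline libraries were the males with numbers 1 and 2 (2512 and 2255 CPM), and the groups overlapped, although all 8 fentanyl libraries lay above the saline median. Means were 1477 ± 657 CPM after fentanyl and 1158 ± 787 CPM after saline (SD, n = 8 each). The log2 fold change was 0.32 ± 0.36 (SE; 95% interval -0.45 to 1.08; Benjamini-Hochberg adjusted p = 0.860 in edgeR's quasi-likelihood fit). Without saline males 1 and 2 the log2 fold change was 0.98 ± 0.24 (adjusted p = 0.0243 by the same edgeR test, in a fit that called 1226 of 17759 genes, 6.90%). All saline libraries left in that fit have numbers from 9 to 12 and all fentanyl libraries numbers from 1 to 6, so exposure and number set cannot be told apart in it. Without saline males 9 to 12, but with the saline females 10 and 11, the log2 fold change was -0.12 ± 0.38 (adjusted p = 0.999 by edgeR; 4 of 17446 genes called, 0.0229%). That value pools sexes of opposite sign, since Penk was below 0 in males against saline males 1 and 2, as given next. In females against saline females 10 and 11 it was 1.39 ± 0.68. In the 10 libraries numbered 1 to 6 alone, a choice made after seeing the data, the log2 fold change of Penk was -0.94 ± 0.27 (adjusted p = 0.0740 by edgeR), with saline males 1 and 2 as the whole of the saline group, and 4.41% of genes were called. As no saline female is in that fit, its exposure term compared the fentanyl males with saline males 1 and 2. It repeats the comparison given below for males and is not a separate result. The sign and the call of Penk thus differed with the saline males used. In bulk tissue, fewer cells of a type and less RNA per cell cannot be told apart.

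Pdyn, the dynorphin precursor, had 152, 269.7 and 451 CPM (lowest, median and highest) in fentanyl libraries and 145, 201 and 553 CPM in saline libraries. Among fentanyl libraries male replicate 2 was lowest, saline male replicate 1 was the highest of all, and 7 of 8 fentanyl libraries lay above the saline median within overlapping ranges. Its log2 fold change was 0.09 ± 0.28 (95% interval -0.49 to 0.67). The ratio of Pdyn to Penk CPM averaged 0.203 ± 0.0631 in fentanyl libraries and 0.255 ± 0.0961 in saline libraries (SD, n = 8 each). Within saline males it averaged 0.184 in numbers 1 and 2 and 0.308 in numbers 9 to 12. The lowest ratio of all, 0.0840, was that of fentanyl male replicate 2, and the highest, 0.404, that of saline male replicate 4.

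Pnoc, the nociceptin precursor, was counted at 1.06, 1.68 and 10.02 CPM in fentanyl libraries and at 1.04, 2.44 and 10.4 CPM in saline libraries (lowest, median and highest). In each exposure 1 male library stood far above the rest, fentanyl male replicate 1 and saline male replicate 3, and the next highest values were 3.06 CPM after fentanyl and 4.43 CPM after saline. The log2 fold change was -0.28 ± 0.49, with an interval from -1.32 to 0.76. It was -0.89 without fentanyl male replicate 1 and 0.18 without saline male replicate 3, so its sign rested on single libraries. Pomc, the precursor of beta-endorphin, was near the lower end of what these depths can count, at 9 to 26 reads per library. It had 0.502, 0.921 and 1.87 CPM in fentanyl libraries and 0.587, 0.965 and 1.31 CPM in saline libraries, and the ranges overlapped. Its log2 fold change was 0.11 ± 0.25.

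Oprm1, the gene of the mu receptor on which fentanyl acts, had 0.216, 1.68 and 3.55 CPM in fentanyl libraries and 0.687, 1.89 and 5.42 CPM in saline libraries (lowest, median and highest). The lowest value stood for 3 reads in fentanyl male replicate 2, with a counting interval of 0.0445 to 0.630 CPM. Ranges overlapped and 3 of 8 fentanyl libraries lay above the saline median. The log2 fold change was -0.53 ± 0.48 (95% interval -1.54 to 0.48). Oprd1, the delta receptor gene, had 1.87, 4.96 and 5.58 CPM in fentanyl libraries and 1.78, 2.999 and 5.16 CPM in saline libraries. Fentanyl male replicate 2 was the one fentanyl library below the saline median. Its means were 4.47 ± 1.25 CPM after fentanyl and 3.27 ± 1.05 CPM after saline (SD, n = 8 each). The log2 fold change of 0.45 ± 0.22 (95% interval -0.02 to 0.91) had the smallest unadjusted p of the 8 genes in the edgeR fit (0.0575; adjusted p = 0.708 by edgeR). With limma voom and sample quality weights, an alternative that called 1031 genes (5.77%), the log2 fold change of Oprd1 was 0.62 ± 0.16 with an adjusted p of 0.0337 by limma.

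Oprk1, the kappa receptor gene, had 8.20, 18.5 and 25.2 CPM in fentanyl libraries and 13.5, 16.2 and 38.8 CPM in saline libraries (lowest, median and highest). Fentanyl male replicate 2 was again the lowest library, and saline male replicate 1 the highest. The log2 fold change was -0.07 ± 0.24 (interval -0.58 to 0.43), and 0.28 ± 0.18 without saline males 1 and 2. Oprl1, the nociceptin receptor gene, had 6.25, 14.9 and 28.4 CPM in fentanyl libraries and 8.46, 17.9 and 34.3 CPM in saline libraries. Its highest libraries were those with the most Pnoc, fentanyl male replicate 1 and saline male replicate 3. The log2 fold change was -0.24 ± 0.28 (interval -0.82 to 0.35).

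**Figure D1:**
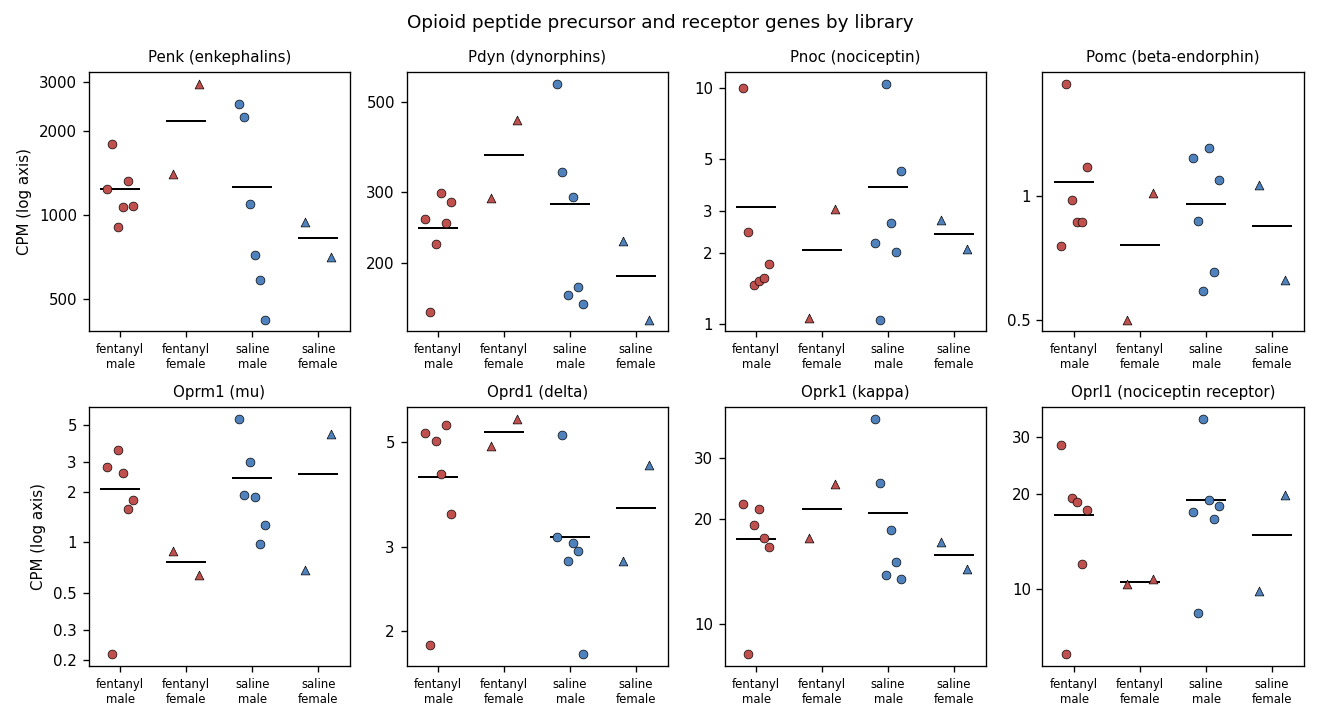
CPM of the 8 opioid genes on a log axis, 1 panel a gene and 1 point a library, with circles for males, triangles for females, red for fentanyl, blue for saline and a line at the mean of each group. Fentanyl and saline libraries overlap in every panel, Pnoc has 1 library near 10 CPM in each male group, and Oprm1 falls to 0.216 CPM in 1 fentanyl male.

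Over both sexes with sex as a term, 0 of the 8 genes passed the adjusted threshold of 0.05 in edgeR's quasi-likelihood test, while 14 of 17856 genes did (0.0784%). DESeq2 called 87 genes (0.487%) and none of the 8. At an unadjusted p under 0.05 there were 0 of the 8 genes in the edgeR fit, against 7.27% of all genes. No member had separate ranges in the 2 exposures, and 0.101% of all genes did. Of the 95% intervals, that of Oprm1 was the widest but for that of Pnoc, and that of Oprd1 was the narrowest.

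In males alone (6 against 6) no member passed. Penk had 911, 1162 and 1811 CPM in fentanyl males and 423, 912 and 2512 CPM in saline males (lowest, median and highest), and the wider saline range enclosed the fentanyl one. Its log2 fold change was -0.03 ± 0.38. Those of the others lay between -0.30 for Pnoc and 0.42 ± 0.26 for Oprd1, and 0 of 8 members were among the 7 genes called (0.0392%). Against saline males 9 to 12 alone, Penk had a log2 fold change of 0.81 ± 0.28 (adjusted p = 0.208 by edgeR; 0.400% of genes called), Pdyn of 0.31 ± 0.22 and Oprk1 of 0.21 ± 0.22. Against saline males 1 and 2 alone, the same genes had -0.94 ± 0.27, -0.87 ± 0.26 and -0.87 ± 0.28 (adjusted p = 0.0617, 0.0695 and 0.0906 by edgeR; 5.47% of genes called). The striatal list mean of the 6 fentanyl males, 6.98 to 7.53, lay between those of the 2 saline sets in 5 of the 6 libraries.

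In females, both fentanyl libraries lay above both saline libraries for 4 of the 8 genes, Penk, Pdyn, Oprd1 and Oprk1, as they did for 24.1% of all genes tested. The fentanyl females have library numbers 1 and 2 and the saline females 10 and 11, so exposure and number set cannot be told apart in females. Penk had 1409.5 and 2956 CPM in the 2 fentanyl females, against 949 and 712 CPM in the 2 saline ones. For Pdyn the fentanyl females had 289 and 451 CPM and the saline females 227 and 145 CPM, and for Oprk1 the fentanyl females had 17.7 and 25.2 CPM and the saline females 17.2 and 14.4 CPM. Log2 fold changes were 1.39 ± 0.68 for Penk (95% interval -0.04 to 2.83; adjusted p = 0.355 by edgeR) and 0.99 ± 0.50 for Pdyn (-0.07 to 2.05; adjusted p = 0.366 by edgeR). For Oprm1 the fentanyl females had 0.892 and 0.644 CPM and the saline females 0.687 and 4.39 CPM, so its log2 fold change of -1.72 ± 0.98 rested on 1 saline library and was 0.15 without it. None of the 17856 genes was called in females by edgeR, 14.3% had an unadjusted p under 0.05, limma voom called 0 and DESeq2 called 20. The fentanyl females had striatal list means of 7.48 and 7.88 and the saline females 6.84 and 6.91, and all 28 striatal markers had a fold change above 0. None of these markers was at 0 in any library. Glial markers lay the other way in females: 0 of 12 myelin, 0 of 10 astrocyte and 0 of 10 microglial markers had a fold change above 0, with medians of -0.99, -0.53 and -0.53 on the log2 scale, and none of them was called. The mean log2 CPM of myelin markers was 8.93 and 7.76 in fentanyl females, against 9.40 and 9.48 in saline ones. The part of these markers in the Penk and Pdyn values of females was not tested.

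The exposure effect in females minus that in males was 1.42 ± 0.77 for Penk (log2; 95% interval -0.22 to 3.06) and 1.19 ± 0.57 for Pdyn (-0.03 to 2.41), with adjusted p = 0.570 for both by edgeR. No gene was called for this difference by edgeR, 8.23% had an unadjusted p under 0.05 and DESeq2 called 4. Between the sexes with exposure as a term, no member passed: log2 fold changes of females over males ran from -0.63 ± 0.59 for Pnoc to 0.26 ± 0.25 for Oprd1, among 10 genes called (0.0560%). Oprl1 had 9.87, 10.6 and 19.8 CPM in the 4 females and 6.25, 18.0 and 34.3 CPM in the 12 males (lowest, median and highest), a log2 fold change of -0.52 ± 0.33.

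**Figure D2:**
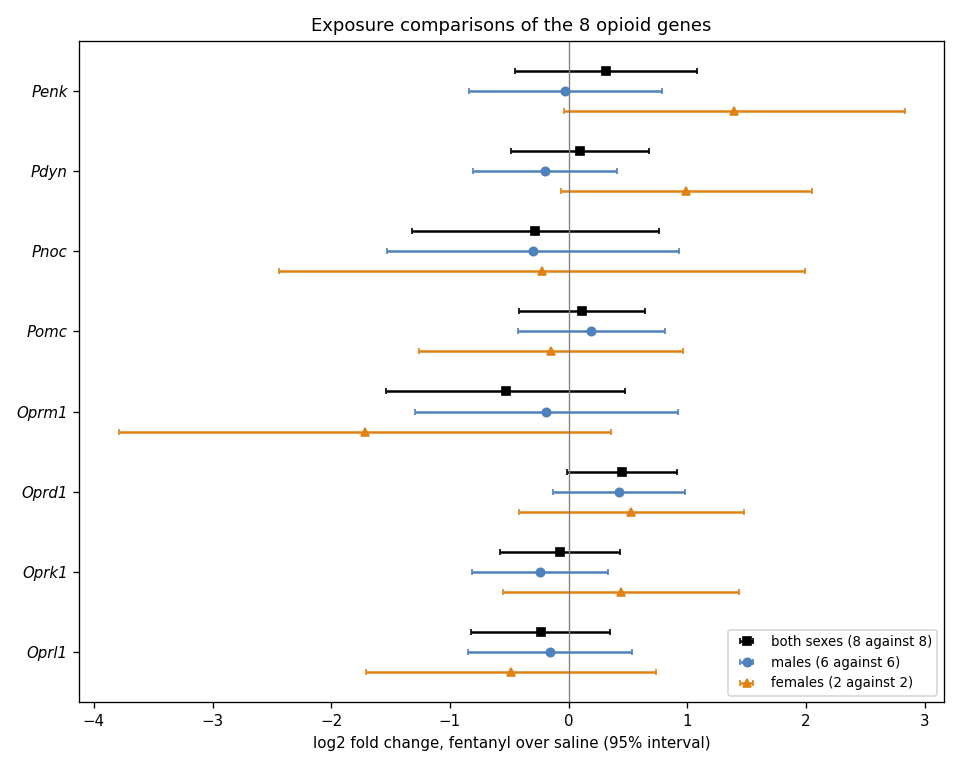
Log2 fold changes of fentanyl over saline for the 8 opioid genes with 95% intervals, from edgeR fits over both sexes (black), males (blue) and females (orange). Every interval includes 0, those of females are the widest, and Penk and Pdyn have their highest estimates in females (1.39 and 0.99).

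The spread between libraries, apart from exposure, was wide for several members. The SD of log2 CPM over the 16 libraries was 1.07 for Oprm1, 0.93 for Pnoc and 0.77 for Penk, against a median of 0.30 over all genes, and 98.9%, 98.0% and 95.1% of genes had a smaller one. For Oprl1 it was 0.64, for Pdyn 0.55, for Oprd1 0.51 and for Oprk1 0.49. Oprm1, Pnoc and Pomc had as few as 3, 18 and 9 reads in a library, so counting error adds to their spread.

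Levels of several members followed striatal markers across libraries. With exposure and sex as terms, Penk changed by 1.33 ± 0.23 log2 units for each unit of the striatal list mean (adjusted p = 0.00112), Pdyn by 0.93 ± 0.22 (adjusted p = 0.00897) and Oprk1 by 0.75 ± 0.21 (adjusted p = 0.0220, all by the edgeR fit). These 3 of 8 genes passed, all upwards, where 9.82% of all genes passed upwards and 20.0% in either direction. Oprd1 had a slope of 0.57 ± 0.22 (adjusted p = 0.0748), Oprl1 one of -0.73 ± 0.31 (adjusted p = 0.107) and Pnoc one of -1.19 ± 0.57 (adjusted p = 0.158 by the same edgeR test). Oprm1 (0.20 ± 0.57) and Pomc (0.15 ± 0.30) had slopes smaller than their errors. Without saline male replicate 1 only Penk passed, and Pdyn had a slope of 0.64 ± 0.21 and Oprk1 one of 0.49 ± 0.20. Without fentanyl male replicate 2, Oprd1 (0.57 ± 0.16) and Oprl1 (-0.72 ± 0.25) passed as well. Calls and slopes differed with the number sets left out. The slope of Penk stayed positive in each subset, and the errors of Penk and Pdyn were larger in these smaller fits. In the fit without saline males 1 and 2, exposure and number set cannot be told apart. Without saline males 1 and 2 none of the 8 genes passed, in a fit that called 6 of 17759 genes (0.0338%), and the slopes were 0.85 ± 0.55 for Penk, 0.64 ± 0.43 for Pdyn and 0.30 ± 0.42 for Oprk1. Without saline males 9 to 12 Penk alone passed, at 1.70 ± 0.29 (adjusted p = 0.00370 by edgeR; 15.4% of genes), and Pdyn had 1.05 ± 0.38. In the libraries numbered 1 to 6 alone no member passed (0.0287% of genes), with slopes of 1.14 ± 0.52 for Penk, -0.15 ± 0.55 for Pdyn and -0.29 ± 0.65 for Oprk1. These subsets were chosen for the slope after seeing the data.

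As plain correlations over the 16 libraries, Penk had Pearson r = 0.84 with the striatal list mean (permutation adjusted p = 0.00199) and Spearman rho = 0.87 (permutation adjusted p = 0.00164). Left out were then saline male replicates 3 and 6, the libraries farthest from the median list mean, and r was 0.90. Oprd1 had r = 0.69 (permutation adjusted p = 0.0232), rho = 0.73 (permutation adjusted p = 0.0169) and r = 0.52 without these libraries, and Pdyn had r = 0.66 (permutation adjusted p = 0.0303), rho = 0.60 (permutation adjusted p = 0.0602) and r = 0.56. Oprk1 (r = 0.48, rho = 0.60), Oprl1 (r = -0.57, rho = -0.54) and Pnoc (r = -0.50, rho = -0.42) did not pass. Of all genes, 22.0% passed by Pearson's r and 23.9% by Spearman's rho. P-values were adjusted over all genes tested for each list, and 12 lists were compared. The call of Oprd1 was lost without fentanyl female replicate 2 or saline male replicate 6, and that of Pdyn without either of them or without saline male replicate 2 or 5. Without saline males 1 and 2 (13.7% of genes passed), r was 0.82 for Penk (permutation adjusted p = 0.00758), 0.70 for Oprd1 (permutation adjusted p = 0.0422) and 0.65 for Pdyn (permutation adjusted p = 0.0696). Without saline males 9 to 12 (13.1% of genes), r was 0.84 for Penk (permutation adjusted p = 0.0161), 0.42 for Oprd1 and 0.60 for Pdyn, and only Penk of the 8 genes passed. In the 10 libraries numbered 1 to 6 alone no member passed (2.04% of genes), and Penk had r = 0.80 (permutation adjusted p = 0.0970).

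Within the 8 fentanyl libraries alone, Penk had r = 0.85 with the striatal list mean (exact permutation p = 0.0123), and within the 8 saline libraries r = 0.81 (exact permutation p = 0.0164). Oprd1 had r = 0.36 within fentanyl and 0.81 within saline libraries (exact permutation p = 0.368 and 0.0160), and Pdyn had 0.57 and 0.71 (exact permutation p = 0.155 and 0.0499). None of the 8 genes passed after adjustment over all genes, where 0.0504% of genes passed within fentanyl and 4.04% within saline libraries. The lowest adjusted p of an r was that of Pnoc within saline libraries (r = -0.80, exact permutation adjusted p = 0.120). Oprm1 had r = -0.50 and rho = -0.76 within fentanyl libraries and r = 0.30 and rho = 0.43 within saline libraries (exact permutation p of rho = 0.0368 and 0.299, before adjustment).

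**Figure D3:**
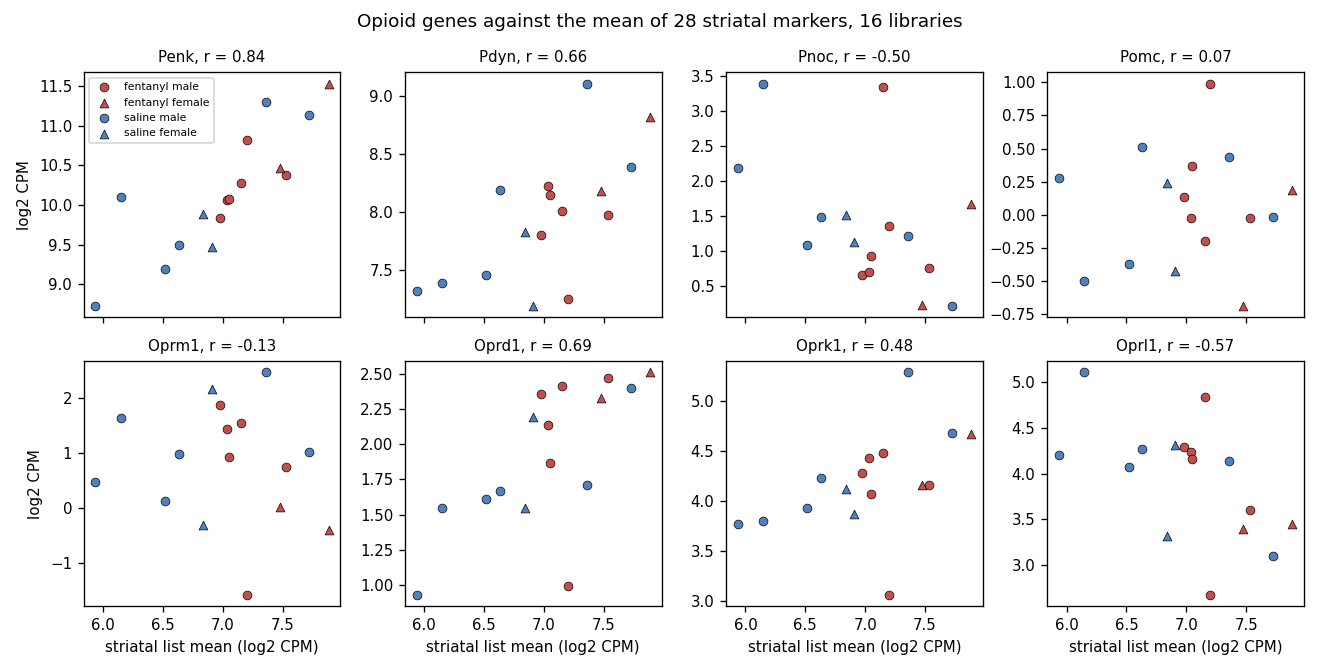
Log2 CPM of each opioid gene against the mean log2 CPM of 28 striatal markers, 1 point a library, with circles for males, triangles for females, red for fentanyl and blue for saline. Penk tends to rise with the list mean (r = 0.84), but saline male replicate 3 has 10.1 log2 CPM of Penk at a low list mean of 6.15. Pnoc and Oprl1 run the other way (r = -0.50 and -0.57), and r was -0.13 for Oprm1 and 0.07 for Pomc.

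The striatal list mean was 7.29 ± 0.31 in fentanyl libraries and 6.76 ± 0.59 in saline libraries (SD of log2 CPM, n = 8 each; ranges 6.98 to 7.88 and 5.94 to 7.72), and 27 of 28 markers had a fold change above 0, none of them called. With this mean as a covariate, the exposure log2 fold change of Penk was -0.24 ± 0.25, against 0.32 without it, and that of Pdyn -0.31 ± 0.22, against 0.09. Oprd1 had 0.18 ± 0.22, Oprk1 -0.40 ± 0.21 and Oprm1 -0.60 ± 0.53. None of the 8 genes passed with the covariate, in a fit that called 14 genes (0.0784%).

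The markers of spiny neuron subtypes, which are in part those of the striatal list, were set beside the members as well. With the mean of the indirect pathway markers (Drd2, Adora2a, Gpr6 and others), Penk had r = 0.82, Oprd1 r = 0.75 and Pdyn r = 0.73 (permutation adjusted p = 0.00261, 0.00800 and 0.0118), where 23.7% of all genes passed. Their rho was 0.79, 0.82 and 0.72, and r without the 2 libraries farthest from the median of the list mean was 0.86, 0.63 and 0.67. Oprk1 had r = 0.61 (permutation adjusted p = 0.0525) and rho = 0.76 (permutation adjusted p = 0.00905) with the same list. With that of the direct pathway markers (Drd1, Tac1, Isl1 and others), Penk had r = 0.61, Oprd1 r = 0.57 and Pdyn r = 0.46 (permutation adjusted p = 0.0911, 0.125 and 0.257), and of the 8 genes only Oprl1 passed, with r = -0.72 (permutation adjusted p = 0.0294; 9.09% of genes). Its rho was -0.63 (permutation adjusted p = 0.101) and r without the 2 farthest libraries -0.54. The difference between the lists in their r with a member was not tested. Central amygdala markers passed with no member: Oprl1 and Pnoc had r = 0.67 each (permutation adjusted p = 0.0907 and 0.121), Oprm1 0.49, Oprk1 0.35, Pdyn 0.28 and Penk 0.21, and 2.51% of all genes passed.

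By Pearson's r, Oprl1 and Pnoc, receptor and precursor of the nociceptin system, passed with the thalamic and hypothalamic list, at r = 0.86 and 0.75 (permutation adjusted p = 0.00554 and 0.0314; 4.64% of genes). Only 9 of the 16 entries of this list passed the filter and entered its mean, among them Lhx6, which is in the interneuron list as well. The Spearman coefficient was 0.82 for Oprl1 and 0.49 for Pnoc (permutation adjusted p = 0.0132 and 0.256), and without the 2 libraries farthest from the median r was 0.84 and 0.57. Of the 6 hypothalamic peptide markers of this list, Pmch was at 0 in all 16 libraries, Oxt in 14, Hcrt in 7 and Avp in 2, while Agrp (0.187 to 0.965 CPM) and Trh (1.44 to 7.42 CPM) were counted in every library. Of these peptide markers only Agrp and Trh entered the mean. Penk and Pdyn ran against glial lists: r was -0.91 and -0.81 with microglial, -0.84 and -0.77 with myelin and -0.84 and -0.71 with astrocyte markers, each past the permutation threshold after adjustment. Of all genes, 31.5% passed with the microglial, 29.6% with the myelin and 25.9% with the astrocyte list, so passing was not particular to opioid genes. The Spearman coefficients of Penk and Pdyn were -0.89 and -0.72 with the microglial, -0.84 and -0.72 with the myelin and -0.88 and -0.70 with the astrocyte list, and without the 2 farthest libraries of each list r ran from -0.53 for Pdyn with myelin to -0.85 for Penk with microglial markers. Oprk1 passed as well with microglial (r = -0.65, rho = -0.75) and myelin markers (r = -0.72, rho = -0.71). With the striosome list, the joint cortical and basolateral list, the interneuron list and the endothelial list no opioid gene passed, where 0% of genes passed for each of the first 3 and 0.246% for the endothelial list. No opioid gene other than Penk, Pdyn and Oprk1 passed by Pearson's r with a glial list. Myelin and striatal markers themselves ran in opposite directions: 10 of 12 myelin markers fell with the striatal mean. With the myelin mean as a further covariate, chosen after seeing the data, the striatal slope was 0.73 ± 0.22 for Penk (adjusted p = 0.0562), 0.38 ± 0.29 for Pdyn and 0.28 ± 0.28 for Oprk1, and those of Pnoc (-2.19 ± 0.57, adjusted p = 0.0255) and Oprl1 (-1.25 ± 0.35, adjusted p = 0.0396 by edgeR) passed, among 1320 genes (7.39%).

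**Figure D4:**
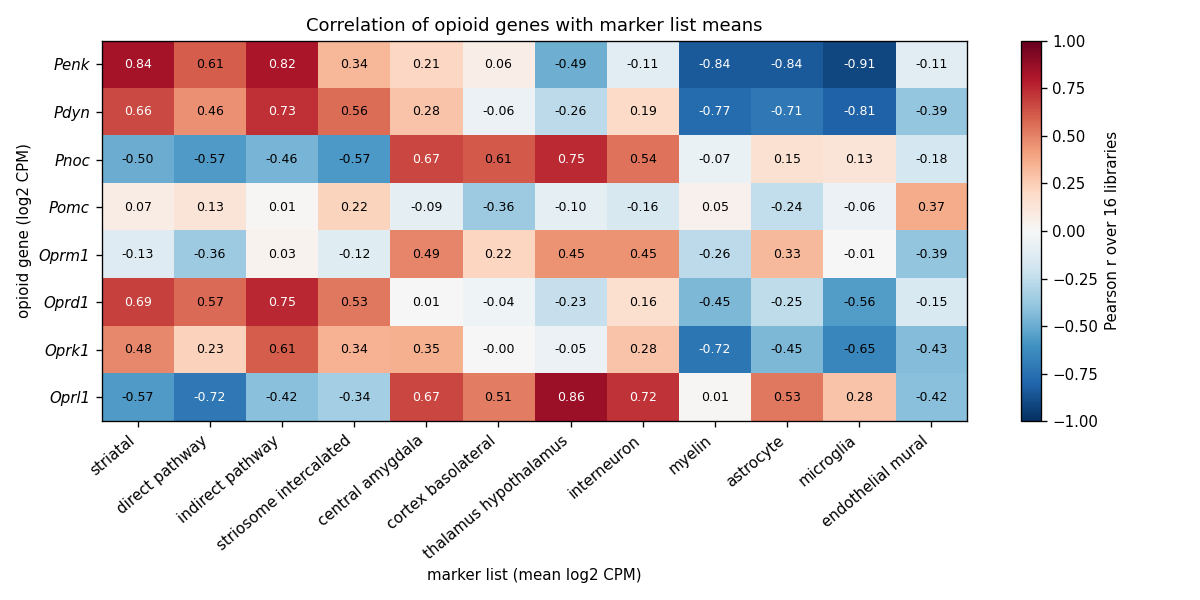
Pearson r over 16 libraries between the log2 CPM of each opioid gene (rows) and the mean log2 CPM of 12 marker lists (columns), from blue for -1 to red for 1. Penk and Pdyn are positive with striatal and indirect pathway markers and negative with the 3 glial lists (myelin, astrocyte and microglia), while Oprl1 and Pnoc are positive with thalamic and hypothalamic markers.

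Of all the pairs that the members form, 3 passed the adjusted permutation threshold of Pearson's r, with one gene of the pair set against all others. Passing was common among all genes as well, at 30.7% with Penk, 18.3% with Pdyn and 17.7% with Oprm1. The count of 3 pairs is thus not a trait particular to the members. Pdyn and Oprk1, the dynorphin precursor and its receptor, had r = 0.89 and rho = 0.88 (permutation adjusted p = 0.00687 and 0.0275, with Pdyn set against all genes). Without the 2 libraries farthest from the median of Pdyn r was 0.80. Oprm1 and Oprl1 had r = 0.74 and rho = 0.72 (permutation adjusted p = 0.0132 and 0.0425, with Oprm1 set against all genes). Penk and Pdyn had r = 0.69 (permutation adjusted p = 0.0155, with Penk set against all genes), but their rho of 0.59 did not pass (permutation adjusted p = 0.0636). For Oprm1 and Oprl1, r was 0.67 without the 2 libraries farthest from the median of Oprm1 and 0.70 without those of Oprl1. For Penk and Pdyn, r was 0.56 without those of Penk and 0.45 without those of Pdyn. Without saline males 1 and 2, Oprm1 and Oprl1 had r = 0.86 (permutation adjusted p = 0.00220; 18.4% of genes passed with Oprm1), Pdyn and Oprk1 r = 0.81 (permutation adjusted p = 0.0595; 0.157% with Pdyn) and Penk and Pdyn r = 0.57 (permutation adjusted p = 0.108; 21.3% with Penk). Without saline males 9 to 12 these pairs had r = 0.81, 0.88 and 0.70 (permutation adjusted p = 0.0201, 0.00964 and 0.0609; 14.6%, 10.8% and 17.1% of genes). In the libraries numbered 1 to 6 alone they had r = 0.78, 0.91 and 0.57 (permutation adjusted p = 0.0703, 0.0364 and 0.282; 5.68%, 4.34% and 5.04% of genes). Over the 16 libraries, 14.1% of all genes passed with Oprl1 and 12.3% with Oprd1 by Pearson's r. By Spearman's rho 28.1% passed with Penk, 6.08% with Pdyn and 6.05% with Oprm1. The other ligand and receptor pairs did not pass: Penk had r = 0.41 with Oprd1 and -0.11 with Oprm1, and Pnoc had r = 0.59 with Oprl1. Pomc, set beside the same receptors as Penk, had r = -0.34 with Oprm1 and -0.48 with Oprd1, and neither passed. A single library, fentanyl male replicate 2, was the lowest of all 16 for Oprm1, Oprk1 and Oprl1. That library also had the highest mitochondrial share (17.7%) and the lowest TMM factor (0.902).

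The genes with the most similar pattern over the 16 libraries were named by Pearson r among genes of at least 1 CPM, as a measure of likeness alone. For Penk they were Ppil4 (0.98), Ap1s1 (0.97) and Gria2 (0.97), an AMPA receptor subunit. For Pdyn they were Zdhhc2 (0.94), Pam (0.93), the enzyme that amidates peptides, and Nt5dc3 (0.91). For Oprm1 they were Slc7a14 (0.95), Dok6 and Cand1 (0.93 each), and for Oprd1 Pgbd5 (0.94), Gnb5, a G protein beta subunit, and the sodium channel gene Scn8a (0.93 each). Oprk1 was nearest to Spata25 (0.95), Tmtc1 (0.91) and LOC102553046 (0.89), and Oprl1 to Disp2 (0.99), the GABA-B receptor subunit gene Gabbr2 (0.97) and Lsamp (0.96). The nearest genes of Pnoc (Irs4 at 0.88, Rsph10b and Nell1 at 0.87) and of Pomc (LOC102550986 at 0.84, Rassf1 at 0.83 and Mtres1 at 0.81) did not pass the adjusted permutation threshold, and no gene did with either of them.

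Genes that process, degrade or act downstream of these peptides and receptors were described from 5 lists. Over both sexes none of their tested members passed: 0 of 15 for peptide processing, 0 of 12 for degradation, 0 of 14 G protein subunits, 0 of 20 regulators and 0 of 25 effectors, with medians of -0.04, -0.03, -0.03, -0.003 and -0.01 on the log2 scale beside -0.01 over all genes. The smallest p in each list belonged to Pcsk1, prohormone convertase 1 (log2 fold change -0.71 ± 0.28), Ece1, endothelin-converting enzyme (-0.19 ± 0.10), Gnao1, the alpha subunit of Go (0.21 ± 0.08), Rgs4, which speeds the shut-off of Gi and Gq signals (0.65 ± 0.14), and Ppp1r1b, the phosphatase inhibitor DARPP-32 (0.56 ± 0.24). Their adjusted p-values ran from 0.137 for Rgs4 to 0.725 for Ece1 by edgeR.

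Set against the striatal list mean, 3 members of the processing list rose and 1 fell, 1 and 1 of the degradation list, 4 and 2 of the G protein list, 8 and 1 of the regulators and 9 and 4 of the effectors, where 9.82% of all genes rose and 10.2% fell. These lists share Gnal, Rgs9, Rgs14, Ppp1r1b and Adcy5 with the striatal markers, and the slope fit did not leave the tested gene out of the mean. Their counts, and the slope and rank of Ppp1r1b, are thus in part set by the list itself. The smallest p belonged to Pam (slope 0.52 ± 0.10), Thop1, thimet oligopeptidase (0.37 ± 0.09), Gng7, a G protein gamma subunit (1.10 ± 0.09), Rgs20 (0.81 ± 0.10) and Ppp1r1b (1.07 ± 0.09).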

How the data were processed

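Poly(A) RNA of 16 rats was sequenced. Trizol extraction and NEBNext library kits are given per the labels' protocols. The tools named per the submitters' processing notes are STAR, HTSeq, Trimmomatic and DESeq2, with build rn7. The sources used here give no versions, annotation or strand setting, and reads of antisense or overlapping genes cannot be told apart. Values are the counts the authors deposited, whole numbers of reads per gene, with no normalization by the authors, and all 33294 rows name genes. Totals ran from 12879701 to 22426428 per library. The chi-square per gene between 2 libraries was at least 3.88 in all 120 pairs, so each library counted as 1 sample.

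Counts were fitted in R 4.3.3 with edgeR 4.0.16 (TMM factors, filterByExpr with a minimum of 0.603 CPM, robust quasi-likelihood test) over all 17856 genes that passed, with Benjamini-Hochberg adjustment over all of them and a threshold of 0.05. Models had exposure and sex, the 4 groups, or exposure, sex and the mean log2 CPM of a striatal list. Standard errors were computed as the log2 fold change over the root of F. Log2 CPM had a prior count of 2. Correlations with 12 marker list means and with each member used 100000 permutations of the 16 libraries (smallest p 1e-05), or all 40320 orders of 8, run for every gene that varied in the libraries used and adjusted over them. Counting intervals are exact Poisson intervals at 95% and cover counting error only. The edgeR exposure and slope tests were checked on simulated counts, and the permutation correlation over 16 libraries on simulated normal values.

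The members, the 17 marker and pathway lists (242 entries, 1 not found) and the tests were chosen with earlier results of these data known. Genes named were all 8 members, list genes past the threshold or, in each pathway list, the one with the smallest p, and the 3 genes most like each member. Against the striatal mean the list genes past the threshold are given as counts. RefSeq promoter windows are of build GRCr8, not of the build used for counting. The replicate numbers of the labels were not taken as pairs in the main fits. The alternatives tried were DESeq2 1.42.0, limma 3.58.1 (voom), RLE factors, all genes unfiltered, a replicate block, subsets of libraries and other covariates. Reads were not used here.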

Additional observations from a re-analysis of the deposited data

Results flagged for a closer look

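In 32 sets of 6 or 8 libraries (8 genes, in the males and in both sexes of each exposure), 8 had a highest or lowest library farther from its nearest neighbour than Dixon's 95% limit allows. The limit assumes normally distributed values and was applied to CPM without a log scale. Each male set also lies within the set of both sexes, so the count of 8 is not set against a chance rate. Penk had 2956 CPM in fentanyl female replicate 2, far above the other fentanyl libraries. Pdyn had 553 CPM and Oprk1 38.8 CPM in saline male replicate 1, each the highest of the 8 saline libraries. Pnoc had 10.02 CPM in fentanyl male replicate 1, apart from the other fentanyl libraries both among males and over both sexes. It had 10.4 CPM in saline male replicate 3, apart in the same 2 ways among saline libraries. Oprl1 had 34.3 CPM in saline male replicate 3, the highest of the saline libraries. Oprk1 in saline libraries lay only just past the limit, with a gap of 0.526 of the range.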

How the results depend on the processing

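Of 1312 values of single opioid genes under an alternative, 1172 kept their sign and their side of the threshold, 101 turned sign, 12 passed the threshold newly and 27 no longer passed, and the causes were not tested. RLE factors and no filter on low counts changed no call of an opioid gene. Genes called over both sexes numbered 14, but 87 with DESeq2, 1031 with limma voom, 2 with the replicate number as a block, 1226 without saline males 1 and 2, 4 without saline males 9 to 12, and 769 in libraries numbered 1 to 6 alone, where the exposure term compared males alone. Of the opioid genes, 1 was called with limma voom (Oprd1) and 1 without saline males 1 and 2 (Penk), and none under the others. In males the 7 calls became 43 with DESeq2, 87 with limma voom, 3 with the replicate block, 71 without saline males 1 and 2, and 955 without saline males 9 to 12. In females the count of 0 became 20 with DESeq2 and 65 in the 4 female libraries alone, and for the difference between the sexes it became 4 with DESeq2 and 1 without fentanyl male replicate 2 and saline male replicate 3 together. The 3575 genes called for the striatal slope became 6169 without these same 2 libraries, 1320 with the myelin mean as well, 6 without saline males 1 and 2 and 5 in libraries numbered 1 to 6 alone. The 3 opioid genes called for the slope became 0, 1 and 0 without saline males 1 and 2, without saline males 9 to 12 and in libraries numbered 1 to 6 alone, and the 3 called for the correlation became 1 without saline males 9 to 12 and 0 in libraries numbered 1 to 6 alone. With 1 library left out at a time there were 9 to 29 calls over both sexes, 4 to 9 in males, 0 to 5 in females and for the difference, and 731 to 4828 for the slope (731 without saline male replicate 2, 1788 without saline male replicate 1). Opioid genes called for the slope then numbered 1 to 5 and those called for the correlation with the striatal mean 1 to 4. Deviations of same-numbered replicates from their group means had r from -0.17 to 0.21, over 0.1 in 2 of 8 pairs. With 2 females a group, the 2 female pairs have the same r by construction. Pairs of unlike numbers were not set beside them, and the block changed no call of an opioid gene. Without fentanyl male replicate 2 and saline male replicate 3 together (chosen after seeing the data), the sign turned over both sexes Pnoc (0.22), Pomc (-0.14) and Oprl1 (0.059), in males Pnoc (0.39), Pomc (-0.14), Oprm1 (0.13) and Oprl1 (0.27), for the difference between the sexes Pnoc (-0.61) and Oprd1 (-0.00903) and between the sexes Pdyn (-0.048). With limma voom, the sign turned over both sexes Pomc (-0.14), Oprm1 (0.32) and Oprk1 (0.15), in males Penk (0.51), Pdyn (0.033), Pomc (-0.10), Oprm1 (0.35) and Oprk1 (0.087) and for the difference between the sexes Oprd1 (-0.024). With the replicate number as a block, the sign turned in males Penk (0.25). With the striatal mean as a covariate, the sign turned over both sexes Penk (-0.24), Pdyn (-0.31), Pnoc (0.56) and Oprl1 (0.19) and in males Pnoc (0.49) and Oprl1 (0.21). Without saline males 1 and 2, the sign turned over both sexes Oprk1 (0.28), in males Penk (0.81), Pdyn (0.31), Oprm1 (0.22) and Oprk1 (0.21) and for the striatal slope Oprm1 (-0.86). Without saline males 9 to 12, the sign turned over both sexes Penk (-0.12), Pdyn (-0.20), Pnoc (0.45), Pomc (-0.031) and Oprl1 (0.034), in males Pnoc (0.95) and Oprl1 (0.40), for the striatal slope Pomc (-0.047) and Oprm1 (-1.22) and for the Pearson r with the striatal mean Pomc (-0.068). In libraries numbered 1 to 6 alone (chosen after seeing the data), the sign turned from that over both sexes Penk (-0.94), Pdyn (-0.87), Pnoc (0.95) and Oprl1 (0.40), for the striatal slope Pdyn (-0.15), Pnoc (0.59), Oprm1 (-2.36) and Oprk1 (-0.29) and for the Pearson r with the striatal mean Pomc (-0.20). The exposure values of this subset compare males alone and repeat those in males without saline males 9 to 12. With the striatal mean as the one term, the sign turned for the striatal slope Oprm1 (-0.14). With the myelin mean as well (chosen after seeing the data), the sign turned for the striatal slope Oprm1 (-0.27). Leaving out 1 library at a time, signs turned over both sexes Pomc (-0.046 to 0.21), Oprk1 (-0.17 to 0.14), Pdyn (-0.046 to 0.35) and Pnoc (-0.89 to 0.18); in males Pomc (-0.014 to 0.30), Oprm1 (-0.40 to 0.20), Oprl1 (-0.36 to 0.10), Penk (-0.21 to 0.29), Pdyn (-0.32 to 0.12), Oprk1 (-0.34 to 0.028) and Pnoc (-1.13 to 0.33); for the difference between the sexes Oprd1 (-0.19 to 0.47), Pnoc (-0.88 to 0.91), Pomc (-0.93 to 0.085), Oprm1 (-2.32 to 0.34) and Oprl1 (-0.75 to 0.25); between the sexes Pdyn (-0.25 to 0.32), Penk (-0.29 to 0.44) and Oprk1 (-0.24 to 0.10); in females Pnoc (-1.18 to 0.34), Pomc (-0.74 to 0.28), Oprm1 (-2.51 to 0.15) and Oprl1 (-0.90 to 0.093); for the striatal slope Oprm1 (-0.32 to 0.57); for the Pearson r with the striatal mean Pomc (-0.092 to 0.21). Depth limits Oprm1, with as few as 3 reads in a library, and Pomc, with as few as 9, more than the other opioid genes.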

Other observations

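Of the processing enzymes, Pcsk1, which makes the first cuts in many precursors, had 5.10 ± 1.67 CPM in fentanyl libraries and 8.58 ± 5.08 CPM in saline libraries (SD, n = 8 each), and its log2 fold change was -0.71 ± 0.28 (adjusted p = 0.601 by edgeR). Pam, which amidates peptide ends, had 239 ± 36.5 CPM after fentanyl and 212 ± 53.5 CPM after saline (log2 fold change 0.17 ± 0.14), and it was among the genes most like Pdyn across libraries. Gnao1, the alpha subunit of Go, had 805 ± 102 CPM after fentanyl and 694 ± 43.1 CPM after saline (log2 fold change 0.21 ± 0.08, adjusted p = 0.605 by edgeR). Of the fits with 2 female libraries a group, the smallest p of the processing list was that of Chgb, a granin of dense-core vesicles, with a log2 fold change of 0.59 ± 0.25 (adjusted p = 0.338 by edgeR).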
